A study of Mus musculus with 7 samples.

Results

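Nuclear receptors are transcription factors that bind DNA through paired zinc fingers, and many of them are switched by a small lipid-like ligand. Esrrb, Esrra, Nr5a2, Nr0b1, Nr2f1, Nr2f2, Nr2f6, Nr2c2, Nr3c1 and Nr6a1 were chosen by name, as members of this superfamily tied to embryonic stem cells or to fibroblasts. All 10 symbols were found among the 55484 genes listed in the count table, and 9 of them were among the 16580 genes with enough counts to be tested. The exception was Nr2f6.

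The counts came from RNA-seq of 4 libraries of mouse embryonic fibroblasts (MEFs), which are connective tissue cells grown from embryos, and 3 libraries of mouse embryonic stem cells (mESCs), which are pluripotent cells grown in culture. Both cell types were of C57/Bl6 genetic background, and no treatment, other allele or age is given for either. In the study such counts show which transcription factors, tied by their motifs to open chromatin, are expressed in the 2 cell types. The libraries were primed at the poly(A) tail, read from the 3′ end and tagged with unique molecular identifiers, and they held 6528643 to 11441278 counts each. The study calls its RNA replicates biological, and counts fewer of them for MEFs than the libraries analysed here. The labels do not name the cultures, animals or cell lines behind the libraries, and their extraction text describes blood stem cells of young and aged mice, so the p-values measure only the spread between these 7 libraries, which may be technical.

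In pluripotent cells, the orphan receptors Esrrb and Nr5a2 are known as activators of the naive network around Oct4, Sox2 and Nanog, while Nr0b1 (DAX1) is an unusual receptor without the zinc finger domain that works mainly as a corepressor. Nr2f1 and Nr2f2 (COUP-TFI and COUP-TFII) are known in mesenchyme and neural tissue, where they often act as repressors, and they can oppose Oct4 expression when stem cells differentiate. Nr3c1 is the glucocorticoid receptor, which is held in the cytoplasm by chaperones until it binds its hormone. Most receptors other than the steroid receptors recognise the half-site AGGTCA as a monomer or in pairs, with TCAAGGTCA as the extended form preferred by the estrogen-related receptors and by Nr5a2, whereas the glucocorticoid receptor binds pairs of AGAACA.

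The cell type labels were checked against marker genes. Summed over 8 pluripotency markers, the mESC libraries had 2999 to 3172 CPM (counts normalised for library size, with TMM scaling between libraries) and the MEF libraries 31 to 34.2. For 10 fibroblast markers the MEF libraries had 23132 to 39876 CPM and the mESC libraries 159 to 182. In edgeR's quasi-likelihood test, with a threshold of 0.05 on the adjusted p, mESCs were higher in all 8 pluripotency markers and lower in all 10 fibroblast markers, and none of them was at 0 in every library of a cell type. Among the markers of other lineages, 5 neural markers moved with the cell type, at 58.4 to 83.8 CPM in MEFs and 621 to 703 CPM in mESCs, with 4 of the 5 called higher and Dcx at 0 in every mESC library. Most of that sum was Stmn2. Summed blood markers were at 4.42 to 26.8 CPM in MEFs and 56.4 to 65.3 CPM in mESCs, where nearly all of the sum was Laptm5, with 1 of 7 markers called higher and Cd53 and Hba-a1 called lower. Trophoblast markers were at 1.34 to 5.63 CPM in MEFs and 12.6 to 20.8 CPM in mESCs, with 2 of 5 called higher. Endothelial markers were at 16.9 to 26.1 CPM in MEFs and 31.6 to 55.2 CPM in mESCs, where Pecam1 was the 1 of 5 called higher. Muscle markers were at 18.8 to 29.4 CPM in MEFs and 3.42 to 14.6 CPM in mESCs, with Actc1 the 1 of 4 called lower. Keratinocyte markers (114 to 147 CPM) overlapped between the cell types. Summed primitive endoderm markers (13.3 to 39.6 CPM) overlapped as well, and most of that sum was Gata6 in both cell types. The others were near 0 in MEFs and higher in mESCs, and were not tested. Sox17 had 0 counts in every MEF library and 51, 41 and 9 in mESCs. Foxa2 had 0 in MEFs and 21, 18 and 4 in mESCs. Gata4 had 0, 0, 5 and 0 against 18, 7 and 19, and Sox7 4, 1, 0 and 1 against 35, 20 and 6. The study sorted Thy1+ MEFs and Thy1-/Ssea1+/Epcam+ mESCs for its chromatin libraries and does not say whether the RNA came from sorted cells. Of these sort markers, Epcam was at 10 to 12.6 CPM in MEFs and 217 to 304 CPM in mESCs, Thy1 at 325 to 386 CPM in MEFs and 6.25 to 7.8 CPM in mESCs, and Fut4, whose enzyme makes the SSEA1 epitope, was not tested. The part of cells of other lineages in the receptor levels was not tested. In bulk RNA, fewer cells that express a gene and less RNA per cell cannot be told apart.

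The DNA just before the start sites of the receptors that differed most is shown here so that the receptor half-sites can be seen in place. The sequences are the 250 bases before the start, from RefSeq on build GRCm38.p6, written 5′ to 3′ on the strand of the gene, and capitals mark the half-site AGGTCA. They were picked because Nr0b1, Esrrb and Nr5a2 had the 3 highest fitted log2 fold changes among the 10 receptors and Nr2f2 the lowest. Nr0b1 lies at chrX:86191525-86191774 (plus strand), Nr5a2 at chr1:136960449-136960698 (minus), Esrrb at chr12:86360867-86361116 (plus) and Nr2f2 at chr7:70366747-70366996 (minus). Nr5a2 and Esrrb have 2 RefSeq starts each, and the sequence at the outer one is printed. The 250 bases before the inner start of Nr5a2 held no AGGTCA. Which start these cells use was not tested.
Nr0b1: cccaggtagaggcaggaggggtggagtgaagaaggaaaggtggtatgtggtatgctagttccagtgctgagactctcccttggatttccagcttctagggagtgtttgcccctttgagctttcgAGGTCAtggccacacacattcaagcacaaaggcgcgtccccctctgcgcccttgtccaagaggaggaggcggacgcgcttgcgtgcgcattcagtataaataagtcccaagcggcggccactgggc
Nr5a2: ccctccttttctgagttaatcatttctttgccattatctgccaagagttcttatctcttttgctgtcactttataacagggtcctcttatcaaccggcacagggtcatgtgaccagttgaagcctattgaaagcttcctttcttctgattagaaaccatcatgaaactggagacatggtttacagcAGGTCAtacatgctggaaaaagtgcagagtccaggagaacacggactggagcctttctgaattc
Esrrb: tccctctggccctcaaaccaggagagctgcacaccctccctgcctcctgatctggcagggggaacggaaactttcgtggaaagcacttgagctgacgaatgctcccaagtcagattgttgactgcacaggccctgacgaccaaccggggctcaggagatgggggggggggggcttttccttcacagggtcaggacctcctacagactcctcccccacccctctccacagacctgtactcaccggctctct
Nr2f2: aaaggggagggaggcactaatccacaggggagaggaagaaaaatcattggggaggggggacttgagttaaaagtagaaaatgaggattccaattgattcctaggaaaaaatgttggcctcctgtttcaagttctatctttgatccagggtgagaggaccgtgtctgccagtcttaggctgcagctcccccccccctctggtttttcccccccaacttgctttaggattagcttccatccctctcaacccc

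The Nr0b1 sequence held 1 half-site, at bases -126 to -121 from the start, and the Nr5a2 sequence held 1 at -64 to -59, both on the printed strand. Nr6a1 has 2 RefSeq starts, and the window at the inner one, chr2:38784516-38784765 (minus strand), held 2 half-sites on the opposite strand, at -91 to -86 and -45 to -40, printed here with 10 bases on each side because no other window held more than 1.
Nr6a1 first site: atgcacactgTGACCTtagagcctga
Nr6a1 second site: gcttgtaaacTGACCTgtgaggatga

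RefSeq windows of 300 bases, from 250 before to 50 after a start, were searched on both strands for 3 motifs, in 13 windows of 9 receptors, with Nr3c1 not analysed here. AGGTCA was in 3 of the 13 windows, against 16.3% of all 32851 promoter windows of the genome. TCAAGGTCA, whose last 6 letters are AGGTCA, was in 0 of the 13 and in 0.423% of all windows. AGAACA was in 3 windows, those of both Nr5a2 starts and of the second Esrrb start, against 19% of all windows. A match to these letters is a description of the sequence and not a binding site.

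The windows also differed in base composition. Over 300 bases the Nr2f2 window held 2 CG dinucleotides, a ratio of observed to expected CG of 0.109, below the median of 0.384 over all windows and above their 10th percentile of 0.0761. The first Nr5a2 window had a ratio of 0.152 and the 2 Esrrb windows 0.266 and 0.318, all below that median. The second Nr5a2 window, with 0.412, was above it. Nr0b1 had 0.551, Esrra 0.781 and Nr2f6 1.04, the last above the 90th percentile of 0.936. No test was made on these ratios.

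Of the 10 receptors, 4 were higher in mESCs (Esrrb, Nr5a2, Nr0b1 and Nr6a1), 3 were lower (Nr2f1, Nr2f2 and Nr3c1), and Esrra and Nr2c2 did not pass the test, with a Benjamini-Hochberg adjusted p under 0.05 from edgeR's quasi-likelihood test over all genes as the threshold. Of all 16580 genes tested, 22.8% were called higher in mESCs and 25.0% lower, 47.9% in either direction, so that calls were common in this comparison. For 7 of the 9 tested receptors, every library of one cell type was above every library of the other, against 52.1% of all tested genes. The median log2 fold change of the 9 was 0.22, and that of all genes 0.037. Scaling by library size alone moved the median of all genes to 0.32 and the calls from 3785 higher and 4153 lower to 5180 higher and 3345 lower.

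**Figure D1:**
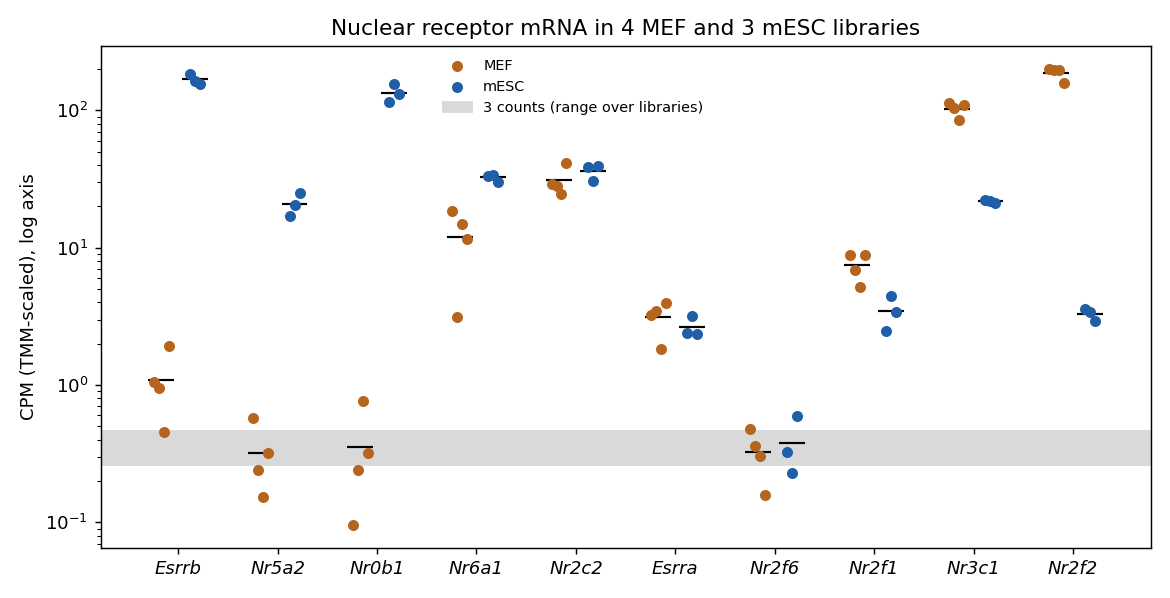
Level of each receptor in CPM (TMM-scaled, log axis) in the 4 MEF libraries (brown) and the 3 mESC libraries (blue), with a line at each mean. The grey band is the level that 3 counts give by library size alone, 0.262 to 0.46 CPM over the libraries. Unlike the points, it is not TMM-scaled. Esrrb, Nr5a2 and Nr0b1 sit far higher in mESCs and Nr2f2 and Nr3c1 far higher in MEFs, while the points of Nr2c2, Esrra and Nr2f6 overlap.

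Esrrb (12:86361117-86521628, plus strand, GENCODE M21 on GRCm38) encodes estrogen-related receptor beta, which binds no known natural hormone. Values are given throughout from the largest to the smallest library of a cell type. The MEF libraries held 11, 8, 3 and 12 counts of Esrrb, and the mESC libraries 1702, 1441 and 1320. As levels these were 1.06, 0.959, 0.457 and 1.91 CPM in MEFs against 184, 164 and 156 CPM in mESCs. Every mESC library was far above every MEF library, and the mESC libraries were close to each other, with a highest over lowest ratio of 1.18.

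The means of Esrrb were 1.09 ± 0.602 CPM in MEFs (SD, n = 4) and 168 ± 14.8 CPM in mESCs (SD, n = 3). The fitted log2 fold change was 7.26 with a standard error of 0.30 (edgeR adjusted p = 3.77e-08). The pooled counts, divided by the TMM-scaled library sizes, gave a ratio of 157 with an exact 95% interval of 112 to 226, which covers counting error only. Esrrb in MEFs was at 0.639% of its mESC level, while the 8 pluripotency markers together were at 1.05%. Single markers lay on both sides of Esrrb, from 0.395% (Dppa4) to 1.99% (Dppa5a). The part of stem cells in the MEF counts was not tested.

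Nr0b1 (X:86191764-86195947, plus strand) encodes DAX1. The MEF libraries held 1, 2, 5 and 2 counts, and the mESC libraries 1073, 1372 and 1117. In CPM the MEF libraries had 0.0959, 0.24, 0.762 and 0.318, and the mESC libraries 116, 156 and 132. Only the third MEF library was above 3 counts, so the level of Nr0b1 in MEFs was at the limit of what this depth can measure. The means were 0.354 ± 0.287 CPM (SD, n = 4) and 135 ± 20 CPM (SD, n = 3), and the log2 fold change was 8.64 (SE 0.36, edgeR adjusted p = 3.77e-08). The pooled ratio was 425, with an interval of 231 to 887, and the log2 fold change was the highest of the 26 nuclear receptor genes tested.

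Nr5a2 (1:136842571-136960448, minus strand) encodes LRH-1, a receptor best known in liver, pancreas and gonad and able to bind phospholipids. The MEF libraries held 6, 2, 1 and 2 counts, of which only the first was above 3, and the mESC libraries held 156, 179 and 213. As levels, the MEF libraries had 0.576, 0.24, 0.152 and 0.318 CPM and the mESC libraries 16.9, 20.3 and 25.1. All 3 mESC libraries were clearly above the MEF libraries, though the mESC libraries spread more than for Esrrb, by a ratio of 1.49 from lowest to highest. The mean rose from 0.321 ± 0.182 (SD, n = 4 MEF libraries) to 20.8 ± 4.13 CPM (SD, n = 3 mESC libraries), a log2 fold change of 5.87 (SE 0.41, edgeR adjusted p = 1.27e-06). Pooled, the ratio was 59.4 with an interval of 33 to 120.

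Nr6a1 (2:38723370-38927688, minus strand) encodes germ cell nuclear factor, an orphan receptor that is known for silencing Oct4 as stem cells leave pluripotency. It had 192, 26, 97 and 73 counts in MEFs and 309, 299 and 256 in mESCs. In CPM the MEF libraries had 18.4, 3.12, 14.8 and 11.6, and the mESC libraries 33.5, 34.0 and 30.2. The mESC libraries were within a ratio of 1.12 of each other, whereas the MEF libraries ranged over a ratio of 5.91, with the MEF library of 9176467 counts far below the rest.

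The mean of Nr6a1 was 12.0 ± 6.53 CPM in MEFs (SD, n = 4) and 32.6 ± 2.05 CPM in mESCs (SD, n = 3). It rose by a log2 fold change of 1.44 (SE 0.43, edgeR adjusted p = 0.0184). Without the low MEF library the log2 fold change was 1.11 with a standard error of 0.24 and an adjusted p of 0.00402 in edgeR, so the direction did not rest on it. Without the mESC library of 8193825 counts the edgeR adjusted p was 0.0508, just above the threshold of 0.05. Tested against a fold change of 2, Nr6a1 was not called, with an adjusted p of 0.195 (edgeR).

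Esrra (19:6910977-6921813, minus strand) encodes estrogen-related receptor alpha, a close relative of Esrrb that is known for driving genes of mitochondrial respiration. It had few counts, 34, 29, 12 and 25 in MEFs and 22, 28 and 20 in mESCs. The levels were 3.26, 3.48, 1.83 and 3.98 CPM in MEFs and 2.38, 3.18 and 2.36 CPM in mESCs, and the 2 sets of libraries overlapped. The mean was 3.14 ± 0.921 CPM in MEFs (SD, n = 4) and 2.64 ± 0.467 CPM in mESCs (SD, n = 3). The log2 fold change of -0.25 (SE 0.44) did not pass the test (edgeR adjusted p = 0.678) and was 0.024 with scaling by library size alone. The exact interval of the pooled ratio, from 0.606 to 1.14, included 1. It covers counting error only and leaves out the spread between libraries, so it does not set the size of difference that could be detected.

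Nr2c2 (6:92091390-92174294, plus strand) encodes TR4, a testicular orphan receptor expressed in many tissues. The MEF libraries had 304, 234, 163 and 262 counts and the mESC libraries 354, 271 and 331. As levels these were 29.2, 28.0, 24.8 and 41.7 CPM in MEFs and 38.4, 30.8 and 39.1 CPM in mESCs. The highest value of all was in a MEF library, that of 6528643 counts, and the 2 cell types overlapped. Means of 30.9 ± 7.39 CPM (SD, n = 4) and 36.1 ± 4.58 CPM (SD, n = 3) gave a log2 fold change of 0.22 (SE 0.21, edgeR adjusted p = 0.43).

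The pooled counts of Nr2c2 gave a ratio of 1.18 with an interval of 1.08 to 1.3, which leaves out the spread between libraries. Nr2c2 was called in 0 of the 13 alternative fits, with log2 fold changes of 0.13 to 0.50. Its counts are uncertain because 31.18% of its exonic bases, among them all of the last 1000 of the gene where a 3′ library is read, lie opposite exons of another gene, nearly all of them of Mrps25, and the strand setting of the counting is not given. Mrps25, a mitochondrial ribosome gene, had 53.0 ± 5.89 CPM in MEFs (SD, n = 4) and 51.1 ± 1.97 CPM in mESCs (SD, n = 3).

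Nr2f2 (7:70351944-70366735, minus strand) encodes COUP-TFII, known for its part in the mesenchyme of developing organs, in veins and in the atria. The MEF libraries held 2094, 1648, 1294 and 985 counts and the mESC libraries 33, 30 and 25. The levels were 201, 197, 197 and 157 CPM in MEFs and 3.58, 3.41 and 2.95 CPM in mESCs. MEF libraries were all far above the mESC libraries, and 3 of the 4 lay within 201 to 197 CPM, with the library of 6528643 counts below them. Nr2f2 fell from 188 ± 21 CPM (SD, n = 4) to 3.31 ± 0.325 CPM (SD, n = 3), a log2 fold change of -5.82 (SE 0.20, edgeR adjusted p = 1.64e-08). Its mESC level was 1.74% of its MEF level, while the 10 fibroblast markers in mESCs were together at 0.555% of theirs. Most of that sum was Col1a1 and Col1a2, and single markers lay on both sides of Nr2f2, from 0.402% (Twist2) to 17.4% (Lum).

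Nr2f1 (13:78188973-78199757, minus strand) encodes COUP-TFI, known for patterning the cortex. Counts were 93, 57, 34 and 56 in MEFs and 23, 39 and 29 in mESCs. In CPM the MEF libraries had 8.92, 6.83, 5.18 and 8.91 and the mESC libraries 2.49, 4.43 and 3.42. The lowest MEF library was just above the highest mESC library, so the cell types did not overlap but came close.

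The mean of Nr2f1 fell from 7.46 ± 1.81 CPM (SD, n = 4) to 3.45 ± 0.969 CPM (SD, n = 3), a log2 fold change of -1.11 (SE 0.37, edgeR adjusted p = 0.0301). This call did not hold in 7 of the 13 alternative fits. Leaving out the MEF library of 11441278 or of 6528643 counts, or the mESC library of 8193825 or of 7462710 counts, gave edgeR adjusted p-values of 0.0693, 0.0628, 0.101 and 0.0747. Its direction was the same in all 13, with log2 fold changes of -1.34 to -0.84. The test of the difference between the changes of Nr2f1 and Nr2f2 is given with the ratios of related receptors.

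Nr2f6 (8:71374123-71381960, minus strand) encodes EAR2, the third of the COUP-TF group, known as a repressor in T cells. It had 5, 3, 2 and 1 counts in MEFs and 3, 2 and 5 in mESCs and was not tested. Only 1 MEF library and 1 mESC library were above 3 counts. The levels were 0.48, 0.36, 0.305 and 0.159 CPM in MEFs and 0.325, 0.227 and 0.59 CPM in mESCs, and no difference was detectable at this depth. Even these few counts are uncertain, since 54.37% of the exonic bases of Nr2f6 lie opposite exons of Ocel1, which had 3.63 ± 2.5 CPM in MEFs (SD, n = 4) and 6.21 ± 1.62 CPM in mESCs (SD, n = 3).

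Nr3c1 (18:39410545-39519421, minus strand) encodes the glucocorticoid receptor, which mediates the response to stress steroids in nearly all tissues. The MEF libraries held 1181, 871, 558 and 688 counts and the mESC libraries 204, 192 and 180. As levels they had 113, 104, 85.1 and 109 CPM in MEFs and 22.1, 21.8 and 21.2 CPM in mESCs. The mESC libraries were nearly equal, with a ratio of highest to lowest of 1.04, and each was well below all 4 MEF libraries.

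Nr3c1 fell from 103 ± 12.5 (SD, n = 4 MEF libraries) to 21.7 ± 0.444 CPM (SD, n = 3 mESC libraries). The log2 fold change was -2.25 (SE 0.17, edgeR adjusted p = 2e-06), and it lay between -2.33 and -1.97 in the 13 alternative fits. Nr3c1 kept 20.8% of its MEF level in mESCs, against 0.555% for the summed fibroblast markers in the same libraries. Single markers of that list ranged from 0.402% (Twist2) to 17.4% (Lum).

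Related receptors were next compared within each library, as the log2 of the ratio of their counts with 0.5 added to each, which needs no scaling between libraries. Ratios of counts depend on the length and 3′ sequence of each gene, so that only their change between cell types is read. In the pair of estrogen-related receptors, Esrrb over Esrra was -1.58, -1.80, -1.84 and -1.03 in the MEF libraries and 6.24, 5.66 and 6.01 in the mESC libraries. MEF libraries had fewer Esrrb than Esrra counts, and mESC libraries many times more. The mean changed from -1.56 ± 0.37 (SD, n = 4) to 5.97 ± 0.29 (SD, n = 3), a difference of 7.53 on the log2 scale (p = 0.0286 in a two-sided exact permutation test, which is the lowest that 4 against 3 libraries allow, and 0.05 after Benjamini-Hochberg adjustment over 7 pairs).

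For Nr2f1 over Nr2f2 the ratio was -4.49, -4.84, -5.23 and -4.12 in MEFs and -0.51, 0.37 and 0.21 in mESCs. Fibroblasts had many more Nr2f2 than Nr2f1 counts, and stem cells had similar low counts of both. The difference was 4.69 on the log2 scale, from -4.67 ± 0.47 (SD, n = 4) to 0.024 ± 0.47 (SD, n = 3), with an exact permutation p of 0.0286, again 0.05 after adjustment. Nr2c2 over Nr2c1, the 2 testicular orphan receptors, was 2.05, 1.37, 2.29 and 2.35 in MEFs and 3.40, 3.25 and 3.40 in mESCs. It was higher in all 3 mESC libraries, from 2.02 ± 0.45 (SD, n = 4) to 3.35 ± 0.085 (SD, n = 3), with the same exact permutation p of 0.0286 and adjusted value, and Nr2c1 was the member of the pair that was called lower in mESCs. This ratio shares the uncertainty of the Nr2c2 counts, whose 3′ exons lie opposite those of Mrps25.

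**Figure D2:**
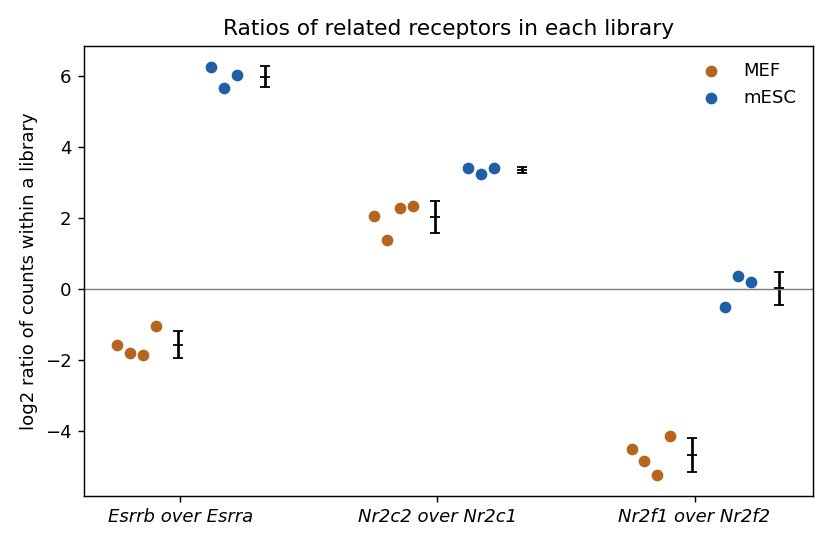
log2 ratio of the counts of 2 related receptors in each library, with 0.5 added to each count, for 3 pairs, in 4 MEF libraries (brown) and 3 mESC libraries (blue). Bars show mean ± SD. The cell types do not overlap in any of these pairs, and the Esrrb over Esrra ratio changes sign between them. Counts of Nr2c2 are uncertain because its exons lie opposite those of Mrps25.

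In the other 4 pairs at least 1 gene was near the limit of 3 counts in at least 1 cell type, and in Nr5a2 over Nr0b1 both were in MEFs. Nr2f2 over Nr2f6 changed by -5.93 on the log2 scale (exact permutation p = 0.0286, adjusted 0.05). Nr2f1 over Nr2f6 changed by -1.24 (exact permutation p = 0.0571, adjusted 0.0667) and Nr5a2 over Nr0b1 by -2.76 (exact permutation p = 0.0571, adjusted 0.0667). No pair had an adjusted p under 0.05, since 0.05 itself was the lowest adjusted value. Nr3c1 over Nr3c2, the mineralocorticoid receptor, changed by -3.06 (exact permutation p = 0.143, the same after adjustment), and Nr3c2 itself had 0 to 4 counts in any library. With 2 counts added in place of 0.5 that difference was -2.61 (exact permutation p = 0.0286, unadjusted).

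The 10 receptors were then set beside the 39 other nuclear receptor genes, from a list of 49. Of these 39, 17 were tested, 8 were lower in mESCs and 0 were higher, against 25.0% lower and 22.8% higher of all genes tested. By an unadjusted p under 0.05 in edgeR 1 of them was higher, and by DESeq2 0 were higher and 9 lower. Their median log2 fold change was -0.86, against 0.037 for all genes. Scaled by library size alone, 1 was higher and 5 lower. The 4 receptors called higher in mESCs among the 26 tested were therefore Esrrb, Nr5a2, Nr0b1 and Nr6a1, all chosen here by name with earlier results known. The other 23 of the 49 had too few counts to be tested.

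Among the other receptors, Nr4a2 and Nr4a1, orphan receptors induced as immediate early genes, were lower in mESCs. Nr4a2 fell from 15 ± 4.39 (SD, n = 4 MEF libraries) to 2.17 ± 0.612 CPM (SD, n = 3 mESC libraries), with a log2 fold change of -2.79 (SE 0.36), and Nr4a1 had a log2 fold change of -1.46 (SE 0.27). The estrogen receptor Esr1 fell with a log2 fold change of -2.24 (SE 0.46). Thra, a thyroid hormone receptor, fell from 46.8 ± 19.6 (SD, n = 4) to 11.0 ± 1.79 CPM (SD, n = 3), a log2 fold change of -2.08 (SE 0.34). Nr2c1 had a log2 fold change of -1.15 (SE 0.36) and the clock-linked receptor Rora one of -0.86 (SE 0.24). The edgeR adjusted p-values of these 6 ran from 0.000104 for Nr4a2 to 0.0231 for Nr2c1. The call of Nr2c1 was lost without the MEF library of 9176467 counts or without any of the 3 mESC libraries, at log2 fold changes of -0.96 to -1.20, and that of Rora without the mESC library of 8193825 counts, at -0.75. Rxra, the common partner of many receptors, was also called lower, with a log2 fold change of -0.97 (SE 0.34), and its libraries overlapped; it was named after its values were seen.

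**Figure D3:**
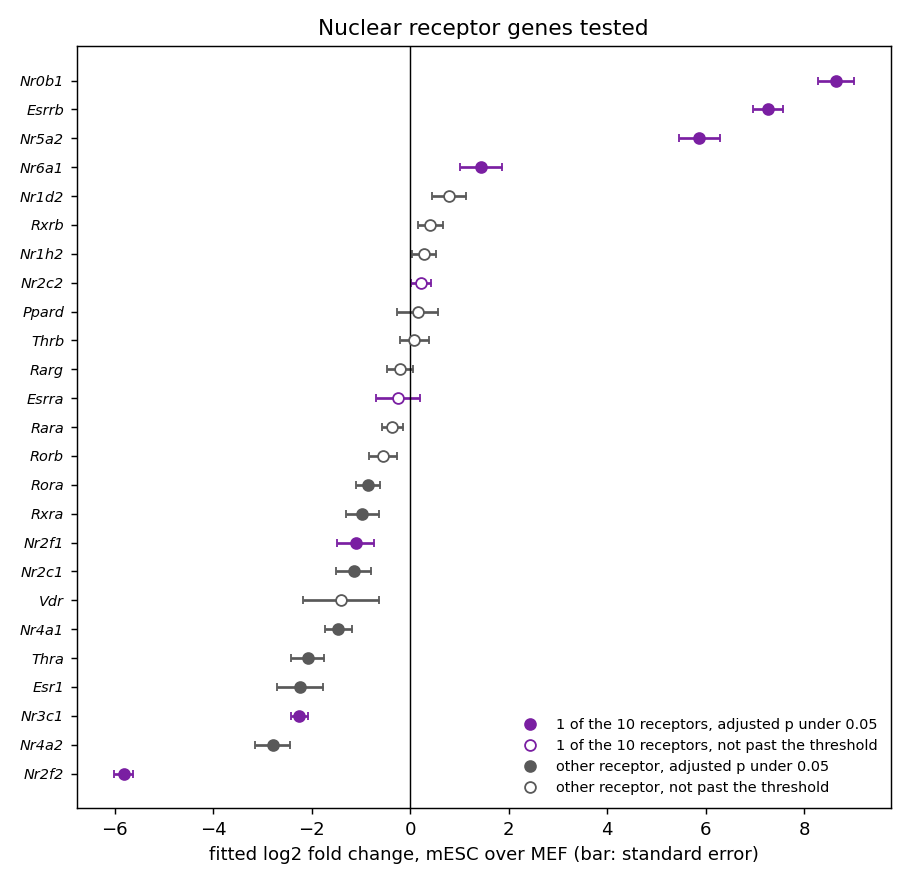
Fitted log2 fold change (mESC over MEF, bars are the standard error) of 25 of the 26 nuclear receptor genes tested, in purple for those of the 10 receptors and in grey for the others, filled where the adjusted p was under 0.05. Nr0b1, Esrrb and Nr5a2 stand at one end, from 8.64 to 5.87, and Nr2f2 at the other at -5.82.

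Receptors act through cofactors, which were given in lists of coactivators, which help to raise transcription, and corepressors, which help to lower it. Of 12 coactivators, all tested, 3 were higher and 3 lower in mESCs, with a median log2 fold change of 0.18. These counts are near the shares over all genes tested, 22.8% higher and 25.0% lower. Ncoa3, a p160 coactivator that is known to work with Esrrb in stem cells, rose from 31.1 ± 2.75 (SD, n = 4 MEF libraries) to 113 ± 31.6 CPM (SD, n = 3 mESC libraries), a log2 fold change of 1.86 (SE 0.20, edgeR adjusted p = 2.76e-05). The histone acetyltransferase Ep300 rose by a log2 fold change of 1.25 (SE 0.25). Ppargc1a, the coactivator of mitochondrial genes that partners Esrra, fell from 2.65 ± 1.39 (SD, n = 4) to 0.233 ± 0.236 CPM (SD, n = 3), a log2 fold change of -3.44 (SE 0.88), and had 0, 2 and 4 counts in mESCs. It could be fitted in 4 of the 7 sets that left out a library, called lower in each, from -4.39 without the mESC library of 7462710 counts to -2.87 without that of 8193825 counts, and in the other 3 it did not pass the filter on low counts. The other 3 called were Pprc1 (log2 fold change 0.97), Crebbp (-0.95) and Ncoa6 (-0.77), named after their values were seen. Without the MEF library of 7312679 or of 6528643 counts, 1 coactivator was called lower.

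Of 8 corepressors, all tested, 4 were lower and 1 was higher, with a median log2 fold change of -0.50. The shares over all genes tested were 25.0% lower and 22.8% higher. The deacetylase Hdac3 fell with a log2 fold change of -1.38 (SE 0.28) and Tbl1x with -1.18 (SE 0.15), with edgeR adjusted p-values of 0.00184 and 8.59e-05. Gps2 fell by 0.60 on the log2 scale, and Ncor1, a platform protein of corepressor complexes, was the gene that rose, by 0.52 on the log2 scale; both were named after their values were seen. Without the MEF library of 11441278 or of 7312679 counts, or the mESC library of 8193825 counts, 0 corepressors were called higher. In the list of proteins that bind Nr2f or Nr2c receptors, 4 of 5 tested genes were lower in mESCs and 0 higher (0 also at an unadjusted p under 0.05 and by DESeq2). Beside this stand the same shares over all genes, 25.0% lower and 22.8% higher. Zfpm2 (FOG2), a cofactor of GATA factors and of Nr2f2, had 90, 108, 55 and 35 counts in MEFs and 0, 1 and 1 in mESCs, a pooled ratio of 0.00828 with an exact interval of 0.000998 to 0.0302. Bcl11a and Bcl11b, first described as COUP-TF interacting proteins, fell with log2 fold changes of -3.15 (SE 0.36) and -3.08 (SE 0.30). The fourth was Nr2c1.

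Most of the called genes in the lists around the glucocorticoid receptor were higher in mESCs, the direction opposite to that of Nr3c1. Of 7 genes for its chaperones and ligand enzymes, 5 were tested, of which 4 were higher in mESCs and 0 lower (0 also at an unadjusted p under 0.05 and by DESeq2), with a median log2 fold change of 0.65. Among all genes tested, 22.8% were called higher and 25.0% lower. Hsp90aa1 rose from 546 ± 101 (SD, n = 4 MEF libraries) to 2636 ± 100 CPM (SD, n = 3 mESC libraries), a log2 fold change of 2.27 (SE 0.15). The immunophilin Fkbp4 rose by 1.22 (SE 0.16) and the adaptor Stip1 by 0.65 (SE 0.19) on the log2 scale, and Stip1 was not called without the mESC library of 8193825 counts (0.62). The fourth, named after its values were seen, was Hsp90ab1, with 0.57. The 2 genes not tested were Hsd11b1 and Hsd11b2, the enzymes that make and inactivate glucocorticoid, and their mean levels were between 0.187 and 0.511 CPM in either cell type.

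Of 13 genes known as targets of the glucocorticoid receptor, 11 were tested, 7 were higher and 3 lower in mESCs, and the median log2 fold change was 1.48. The shares over all genes tested were 22.8% higher and 25.0% lower. The metallothioneins Mt2 and Mt1, which bind zinc and also respond to metals, had the highest fold changes of the list. Mt2 had 15.6, 22.5, 14.0 and 20.7 CPM in MEFs and 2881, 1801 and 2138 CPM in mESCs, a log2 fold change of 6.96 (SE 0.24, edgeR adjusted p = 1.64e-08), and Mt1 rose by 5.27 (SE 0.36) on the log2 scale. The other genes that rose were Fkbp5, Sgk1, Dusp1, Klf9 and Ddit4, with log2 fold changes from 0.92 for Ddit4 to 2.44 for Dusp1.

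The 3 targets that fell, as Nr3c1 did, were Errfi1, Tsc22d3 and Cebpd. Errfi1, a feedback inhibitor of the EGF receptor, fell from 189 ± 69.4 (SD, n = 4 MEF libraries) to 17.1 ± 4.9 CPM (SD, n = 3 mESC libraries), a log2 fold change of -3.47 (SE 0.34). Tsc22d3 (GILZ) had 26.8, 19.4, 24.4 and 24.2 CPM in MEFs and 2.17, 2.61 and 3.19 CPM in mESCs, a log2 fold change of -3.15 (SE 0.28), and Cebpd changed by -3.03 (SE 0.24). Beyond Mt2, Mt1 and Errfi1 the targets were named after their values were seen. Whether glucocorticoid was in the medium of either cell type is not given.

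Of 12 metabolic genes known as targets of the estrogen-related receptors, 11 were tested, 4 were higher and 2 lower in mESCs, and the median log2 fold change was 0.31. Over all genes tested, 22.8% were called higher and 25.0% lower, 47.9% in either direction. Tfam, which packages mitochondrial DNA, rose from 39.0 ± 7.75 (SD, n = 4 MEF libraries) to 82.4 ± 15.1 CPM (SD, n = 3 mESC libraries), a log2 fold change of 1.08 (SE 0.20, edgeR adjusted p = 0.00109). The fatty acid oxidation enzyme Acadm rose by 0.76 (SE 0.19) on the log2 scale. Atp5b rose by 0.72, and Cs and Sdhb, of the citrate cycle, fell by 0.55 and 0.56 on the log2 scale; these were named after their values were seen. Scaled by library size alone, 0 of the list were lower.

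In the list of 12 factors of the naive pluripotency network, all 12 were higher in mESCs and 0 lower (0 also at an unadjusted p under 0.05 and by DESeq2). Their median log2 fold change was 6.39. Of all genes tested, 22.8% were called higher and 25.0% lower. Sox2 rose by 7.74 (SE 0.24), the AKT cofactor Tcl1 by 7.52 (SE 0.29) and the zinc finger factor Sall4 by 7.49 (SE 0.26). In these values Esrrb, with 7.26, and Nr5a2, with 5.87, lay on either side of the median of the network, and Nr0b1, with 8.64, was above Sox2.

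**Figure D4:**
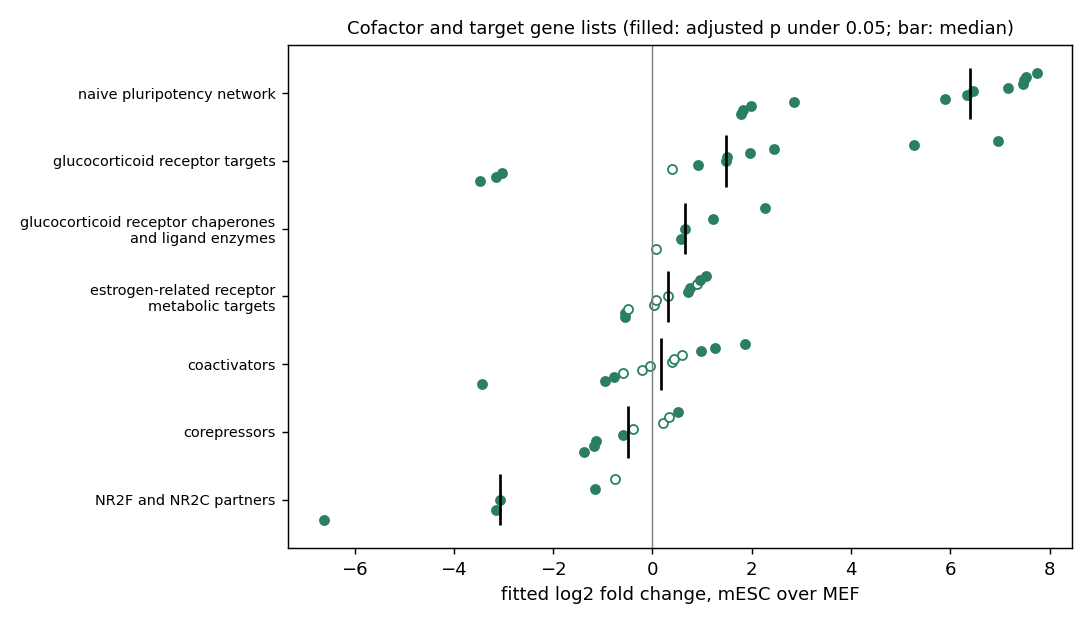
Fitted log2 fold changes (mESC over MEF) of the genes in 7 lists of cofactors, partners and targets, 1 point for each tested gene, filled where the adjusted p was under 0.05, with a bar at the median of the list. The naive network lies wholly to the right, with a median of 6.39, the Nr2f and Nr2c partners to the left, with a median of -3.08, and the other lists hold genes near 0 or on both sides of it.

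Finally, the genes with the profile most like that of 6 receptors over the 7 libraries were found, by the root mean square difference of centred log2CPM values. All of these likenesses are set mainly by the difference between 2 cell types, and they are descriptions over libraries that fall into 2 clusters. For Nr2f2 they were the chemokine Cxcl12 (0.108), the surface protein Thy1 (0.138) and the cyclin Ccnd2 (0.145). Thy1, a fibroblast marker, had 352 ± 25.4 CPM in MEFs (SD, n = 4) and 7.11 ± 0.788 CPM in mESCs (SD, n = 3), and its log2 fold change of -5.63 was close to the -5.82 of Nr2f2. For Nr3c1 the nearest were the chromatin protein Hp1bp3 (0.0914), the oxidase subunit Cyba (0.111) and the receptor kinase Erbb2 (0.127). Those of Nr2f1 were Asb3 (0.154), Lpin2 (0.159) and Fundc1 (0.163), although Lpin2 was not called lower without the mESC library of 8193825 counts (-0.76). These 9 genes were the same with a prior count of 0.5 in place of 2.

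For the receptors near 0 in MEFs the profiles were less certain, because they turn on a handful of MEF counts. L1td1 (0.326), Mt2 (0.368) and Mcf2 (0.373) were nearest to Esrrb, and only Mcf2 was kept with the other prior count. Nr0b1 was nearest to Tex19.1 (0.371), Sall4 (0.488) and Sox2 (0.519), of which only Tex19.1, a germline and placenta gene, was kept. For Nr5a2 the 3 nearest were the unnamed loci Gm15286, Gm13230 and Gm14058, and 0 of them were kept.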

How the data were processed

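RNA was measured in 4 MEF and 3 mESC libraries. The authors demultiplexed and trimmed the reads, aligned them to mm10 (GRCm38) with STAR (version 2.4.2a in the submitters' processing notes, while the methods of the study name another version), used Je to collapse reads that share a unique molecular identifier, and assigned uniquely mapped reads to exons with featureCounts. The deposited values are whole-number counts per gene without normalization. The annotation release and strand setting are not given in the sources used here, so counts of genes with overlapping exons on opposite strands are uncertain. Column names give the cell type but do not say which sample number is meant, so libraries are named by total counts. The number of per-sample columns not used was 0. Chromatin accessibility data were not analysed here.

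The cell types were compared in 1 fit of the 7 libraries with no covariate (edgeR 4.0.16 with limma 3.58.1 in R 4.3.3), after filterByExpr and TMM scaling, by the quasi-likelihood test. P-values were adjusted over all genes tested by Benjamini-Hochberg, with a threshold of 0.05. The script was tested on simulated data. Levels are TMM-scaled CPM, and log2CPM used a prior count of 2. Each library's floor was 3 counts, and intervals and floors cover counting error only. Ratios of related receptors used an exact two-sided permutation test over the 35 ways to divide the libraries into 4 and 3, in Python 3.11.15 with scipy 1.17.1. Pairs of libraries of 1 cell type differed by a chi-square of 18.1 to 38 per degree of freedom, so none was a copy of another. Whether some came from the same culture or RNA was not tested. Positions and overlaps are from GENCODE M21 on GRCm38, and promoter sequences from RefSeq on GRCm38.p6. Alternatives were DESeq2 1.42.0, no TMM, DESeq2's size factors, no filter beyond 1 count, a minimum of 10 counts in all libraries of either cell type, a test against a fold change of 2, other prior counts, and each library left out.

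The 10 receptors and all gene lists were chosen with earlier results of these data known. Besides the 10, the genes named are other nuclear receptors that were called and did not overlap, the 3 called genes of each list with the largest absolute log2 fold change, denominators of ratios and the 3 nearest profiles. Any other gene is marked where it is named. Some genes of the lists are not reported here.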

Additional observations from a re-analysis of the deposited data

Results flagged for a closer look

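For 45 genes named here, the log2CPM values of the 4 MEF libraries were examined as a group. The distance of the highest or lowest library to its nearest neighbour was divided by the range of the group. This value was set against the 95% critical value of Dixon. Chance passes this for about 1 in 20 groups, and 2 of the 45 passed. Nr2f2 had a value of 0.927, since the MEF library of 6528643 counts had 157 CPM and the other MEF libraries 197 to 201 CPM. It remained 1 of the 4 MEF libraries far above mESCs, and without it the log2 fold change of Nr2f2 was -5.91. Tfam had a value of 0.854, from the same library, which had 50.6 CPM against 34.4 to 36.4 CPM in the other MEF libraries. The same library had the lowest total of the 7.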

How the results depend on the processing

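Esrrb, Nr5a2, Nr0b1, Nr2f2 and Nr3c1 were called in the same direction in all 13 alternative fits, and Esrra and Nr2c2 in 0 of 13. Esrra changed sign, to 0.024, with scaling by library size alone. Nr2f1 was not called with that scaling (-0.84), with no filter beyond 1 count (-1.15) or in a test against a fold change of 2 (-1.11), and ranged from -1.34 to -0.93 with a library left out. Nr6a1 was not called against a fold change of 2 (1.44) and ranged from 1.11 to 1.73 with a library left out. That stricter test called 3991 genes, 1714 higher and 2277 lower, as its construction lowers counts. It left 1 coactivator higher and 1 lower, 0 corepressors higher and 0 lower, 1 glucocorticoid receptor chaperone higher, 0 estrogen-related receptor targets higher and 0 lower, and 4 other nuclear receptors lower. With library size alone, 2 corepressors were higher, 0 estrogen-related receptor targets lower, and 1 other nuclear receptor higher and 5 lower. With a library left out, coactivators called lower ranged from 1 to 3 and corepressors called higher from 0 to 1. The Nr3c1 over Nr3c2 ratio reached an unadjusted exact permutation p of 0.0286 with a pseudocount of 2 (-2.61). Of 3 nearest profiles, 1 was kept for Esrrb, 0 for Nr5a2 and 1 for Nr0b1 with a prior count of 0.5. Where not stated, the cause was not tested. Depth limits Nr2f6 and Nr3c2, and Nr5a2 and Nr0b1 in MEFs. No paired analysis was possible because the column names carry 2 numbers and do not say which is the number of the sample. The first number is 1 in every column, and only the second differs between libraries of a cell type. Nor is any pairing of MEF with mESC libraries stated, so equal numbers would not show that libraries belong together.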
